A study of Rattus norvegicus with 20 samples.

Results

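Platelet-derived growth factors and their receptors were measured in rat foetal testes after exposure of the dams to plasticiser compounds. The group was defined as the array probes named Pdgfa, Pdgfb, Pdgfc, Pdgfra or Pdgfrb. Of these 5 names, 4 were found among the 41012 probes of the array, each with 1 probe, and Pdgfb was not found under that name. Of the 4 genes, Pdgfa, Pdgfra and Pdgfrb were well above background on all 20 arrays and were tested among 24276 genes, 23956 of them in comparisons with control. Pdgfc was well above background on 0 of 20 arrays and was not tested. A further probe, described in the array files as the platelet-derived growth factor B chain precursor and named there only by a transcript, is given beside the members as the PDGF B chain probe and enters no count of members.

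Pregnant Han Wistar dams were gavaged daily on gestation days 12 to 19 with the vehicle, corn oil (the control), or with DEHP, MEHP, TOTM or EHO at 500 mg/kg. DEHP is di(2-ethylhexyl) phthalate, MEHP is its monoester mono(2-ethylhexyl) phthalate, TOTM is tris(2-ethylhexyl) trimellitate, and EHO is known here only by that label. Doses were equal by mass, not by mole. RNA of each array came from the pooled testes of 1 litter, from 3 or more pups, and every group had 4 arrays. A pool mixes all cell types of the testis, so fewer cells of a type and less RNA per cell cannot be told apart. The 4 arrays of a group shared 1 slide that held no other group, so slide and group cannot be told apart in any comparison.

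PDGF ligands are secreted as disulphide-linked dimers of A, B, C and D chains, and they bind the receptor tyrosine kinases PDGFR-alpha and PDGFR-beta, which pair up, phosphorylate each other and recruit kinases, lipid kinases and adaptor proteins. In the foetal testis the A chain is made mainly by the cords, while PDGFR-alpha lies on interstitial cells and is needed for the fetal Leydig cell lineage and for cord formation. PDGFR-beta marks perivascular and interstitial mesenchyme, and the B chain is best known from endothelium, where it recruits pericytes.

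Levels are log2 processed signals relative to the 75th percentile of the same array, so 0 is that percentile and a difference of 1 is a doubling. They were compared for 1 probe at a time, since probes differ in brightness. The fold changes, standard errors (SE), 95% intervals and p-values come from a limma fit across all genes and samples, and a gene was called at a Benjamini-Hochberg adjusted p under 0.05. The arrays MEHP 1 and MEHP 2 differed by less than the sampling noise, at 0.582 times the spread between repeated spots, so both were averaged and counted as 1 sample; MEHP thus has n = 3, the other groups n = 4, and the series 19 samples. The next closest of 190 pairs of arrays was control 2 with MEHP 3, at 0.956 times that spread, so this pair also differed by less than the noise. These 2 arrays carry different labels and were kept as separate samples. Fits and permutations over the 19 samples thus treat them as independent. EHO 1 and EHO 2 were the dimmest arrays. On EHO arrays 46.1% to 63.5% of spots were well above background, against 63.9% to 79.8% on the others. Flagged outlier spots made up 1.24% to 1.27% of the control arrays and 0.152% to 0.332% of the others. Nothing in the labels ties litters across groups; precision is limited by how few arrays there are, and p-values measure only the spread between these pools. Of the marker probes on the array, all 10 for fetal Leydig cells, all 10 for Sertoli cells and all 8 for gonocytes were kept as above background.

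The members' probes lie as follows on the rat build rn4 used in the array files. The Pdgfra probe covers chr14:35369708-35369767 on the minus strand and the Pdgfrb probe chr18:57053405-57053463 on the plus strand. The Pdgfa probe spans chr12:16160668-16162882 on the plus strand, a distance of 2215 bases. The Pdgfc probe covers chr2:172768629-172768688 on the plus strand, and the PDGF B chain probe chr7:118249590-118249649 on the minus strand. Exon and UTR annotation on that build was not used here.

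To show the sequence in front of the ligand and the receptor that the results turn on, the 250 bases before the start of Pdgfa and of Pdgfra are given from RefSeq on the build GRCr8, read 5′ to 3′ along each gene. Pdgfa lies at chr12:20759116-20759365 on the plus strand and Pdgfra at chr14:33408517-33408766 on the minus strand. Capitals mark matches on either strand to the GC box GGGCGG, the nuclear receptor half-site AGGTCA, the GATA motif AGATAA, the TATA box TATAAA or the CCAAT box, whose searched letters are CCAAT; matches of different motifs were allowed to overlap.
Pdgfa: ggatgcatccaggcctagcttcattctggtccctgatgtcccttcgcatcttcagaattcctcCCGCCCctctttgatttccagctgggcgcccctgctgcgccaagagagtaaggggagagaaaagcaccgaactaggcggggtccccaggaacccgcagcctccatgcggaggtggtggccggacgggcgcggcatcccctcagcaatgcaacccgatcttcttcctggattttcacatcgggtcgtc
Pdgfra: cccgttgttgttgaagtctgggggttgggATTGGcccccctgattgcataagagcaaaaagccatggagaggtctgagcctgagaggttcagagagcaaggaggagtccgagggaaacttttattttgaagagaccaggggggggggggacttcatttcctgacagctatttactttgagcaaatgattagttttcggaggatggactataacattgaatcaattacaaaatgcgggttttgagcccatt
The Pdgfa stretch held 1 GC box on the opposite strand, 187 to 182 bases before the start, a motif found in 30.5% of 33469 promoter stretches of the same length. The Pdgfra stretch held 1 CCAAT box on the opposite strand, 221 to 217 bases before the start, a motif found in 34% of them. None of the other letters searched was found in either stretch; they occur in 14.1% (half-site), 10.3% (GATA motif) and 12.9% (TATA box) of the stretches. The Pdgfa stretch was 60.8% G or C and that of Pdgfra 47.2%, against a median of 51.2%. The promoter of Pdgfrb was not analysed here.

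The first question was whether any compound shifted the PDGF genes from their level in vehicle-exposed testes. With limma, 0 of 3 tested members were called with DEHP, MEHP, TOTM or EHO, and none had an unadjusted p under 0.05 in these comparisons. Over all genes, 0.00417% were called with DEHP (2.47% at an unadjusted p under 0.05), 0.964% with MEHP (5.32%), 0.0209% with TOTM (8.21%) and 24.8% with EHO (45.6%).

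**Figure D1:**
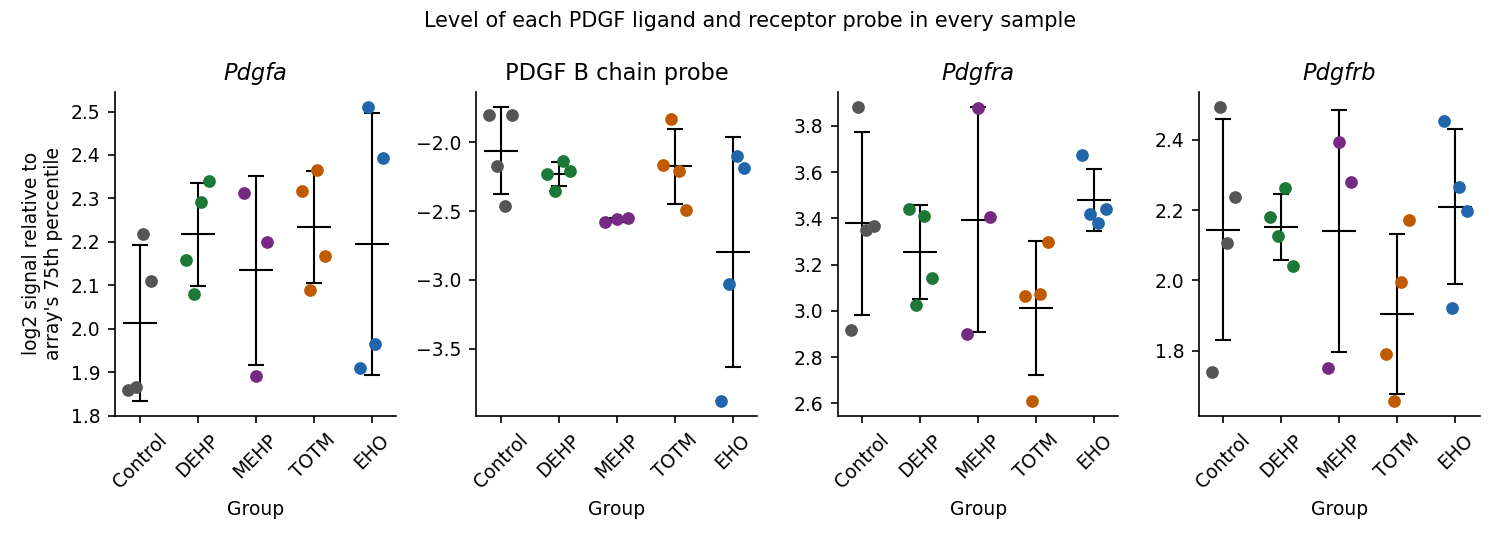
Level of each probe in every sample, by group; points are samples (MEHP 1 and 2 averaged), horizontal lines group means and bars 1 SD, on the log2 scale relative to the array's 75th percentile, with a separate axis for each probe. The Pdgfra points of TOTM lie between 2.61 and 3.30, below all 4 EHO points, while the control and MEHP points span the widest ranges.

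Among the ligands, Pdgfa encodes the A chain, the form that binds PDGFR-alpha alone. Its level was 1.86, 1.87, 2.22 and 2.11 in controls 1 to 4, a mean of 2.01 ± 0.18 (SD, n = 4). It was 2.16, 2.08, 2.29 and 2.34 with DEHP, a mean of 2.22 ± 0.12 (SD, n = 4). The 2 lowest of all samples were controls 1 and 2, and every DEHP sample lay above both, although the groups overlapped. With MEHP the level was 2.31 in the averaged pair 1 and 2, 1.89 in MEHP 3 and 2.20 in MEHP 4, a mean of 2.13 ± 0.22 (SD, n = 3). With TOTM it was 2.32, 2.09, 2.37 and 2.17, a mean of 2.23 ± 0.13 (SD, n = 4). With EHO it was 1.91, 2.51, 1.96 and 2.39, a mean of 2.19 ± 0.30 (SD, n = 4), and EHO held the highest sample of the series. The means of all 4 compounds stood above control by 0.22 ± 0.15 (SE; TOTM), 0.20 ± 0.15 (DEHP), 0.18 ± 0.15 (EHO) and 0.12 ± 0.16 (MEHP). Each difference was within the replicate spread (limma adjusted p of 0.730 with TOTM, 0.346 with EHO, 0.976 with MEHP and close to 1 with DEHP). In order of mean level the groups ran control, MEHP, EHO, DEHP, TOTM, and no neighbours in that order differed beyond their spread. The 4 differences share the control arrays. The intervals of the differences reached from -0.21 to 0.53.

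The PDGF B chain probe was dim. It was well above background on 18 of 20 arrays, the exceptions being EHO 1 and EHO 2. Its level was -1.80, -2.17, -2.46 and -1.80 in controls 1 to 4, a mean of -2.06 ± 0.32 (SD, n = 4). With MEHP it was -2.58 in the averaged pair, -2.56 in MEHP 3 and -2.55 in MEHP 4. All 3 MEHP values lay below every control, and they differed among themselves by far less than the controls did. The gap rests on the averaging of MEHP 1 and 2. Singly these arrays read -2.45 and -2.71, and MEHP 1 lay just above control 3 at -2.46. The narrow spread of the 3 values also rests in part on the averaging. The difference from control was -0.50 ± 0.31 (SE), which limma did not call (adjusted p = 0.976). That SE uses 1 spread shared by all 5 groups, and the EHO samples spread most (SD 0.84, against 0.32 in controls). The exact two-sided permutation p was 0.0571, where 3 against 4 can reach 0.0286. Such a gap, with the compound lower, occurred for 6.89% of genes. DEHP values ran from -2.35 to -2.13 and TOTM values from -2.49 to -1.83, both overlapping the controls.

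With EHO the B chain probe read -3.88, -3.03, -2.10 and -2.18, a mean of -2.80 ± 0.84 (SD, n = 4). The 2 low values are the 2 arrays on which the probe was not well above background; the other 2 lay inside the control range. The difference from control was -0.74 ± 0.29 (SE; limma adjusted p = 0.0642). Without EHO 1 and 2 it was -0.08 ± 0.19 (adjusted p = 0.874). When outlier spots were removed before the 75th percentile was taken, the difference was -0.82 and was called (adjusted p = 0.0410).

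Pdgfc encodes the C chain, which is secreted in a latent form and freed by proteolysis. Its probe was not well above background on any array, with processed signals from 6.37 to 32.1, so the data set only a bound on it and no fold is given.

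Pdgfra encodes PDGFR-alpha, whose ligands include the A and C chains. Its level was 2.92, 3.88, 3.35 and 3.37 in controls 1 to 4, a mean of 3.38 ± 0.40 (SD, n = 4). Control 1 was among the lowest samples of the series and control 2 among the highest. With DEHP it was 3.44, 3.03, 3.41 and 3.14, a mean of 3.26 ± 0.20 (SD, n = 4). With EHO it was 3.68, 3.42, 3.38 and 3.44, a mean of 3.48 ± 0.13 (SD, n = 4). The values of both groups lay inside the range of the controls. The differences from control were -0.12 ± 0.22 (SE; 95% interval -0.58 to 0.33) for DEHP and 0.10 ± 0.22 (-0.35 to 0.55) for EHO.

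TOTM had the lowest Pdgfra mean, followed by DEHP, control, MEHP and EHO, and no neighbours in that order differed beyond their spread. Its samples read 3.07, 2.61, 3.07 and 3.30, a mean of 3.01 ± 0.29 (SD, n = 4). TOTM 2 was the lowest of all 19 samples, and the other 3 overlapped the controls. The difference from control was -0.37 ± 0.22 (SE; 95% interval -0.82 to 0.09; limma adjusted p = 0.672), and the exact two-sided permutation p was 0.229, where 4 against 4 can reach 0.0286. Without control 2 the difference was -0.20, and without control 1 it was -0.52. Quantile normalization with outlier spots removed gave -0.72 and a call (adjusted p = 0.0150), and normexp correction with quantile normalization gave -0.67 (adjusted p = 0.0106). With the outlier spots kept, quantile normalization gave -0.37 and no call (adjusted p = 0.428).

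The MEHP arrays did not agree on Pdgfra. The averaged pair MEHP 1 and 2 read 2.90, MEHP 3 read 3.88 and MEHP 4 read 3.41, a mean of 3.39 ± 0.49 (SD, n = 3). Set against the control mean, the pair lay 0.48 below it, MEHP 3 lay 0.50 above it and MEHP 4 lay 0.03 above it. The mean difference was 0.02 ± 0.23 (SE; 95% interval -0.48 to 0.51; limma adjusted p = 0.993). Its sign depended on which arrays were used. It was -0.48 with MEHP 3 and 4 left out and 0.26 with MEHP 1 and 2 left out, and -0.06 without the close pair control 2 and MEHP 3.

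Pdgfrb encodes PDGFR-beta, whose ligands include the B and D chains and which is carried by pericytes and interstitial mesenchyme. Its level was 1.74, 2.49, 2.11 and 2.24 in controls 1 to 4, a mean of 2.14 ± 0.31 (SD, n = 4). The order of the controls was that of Pdgfra, with control 1 lowest and control 2 highest. DEHP samples read 2.18, 2.13, 2.26 and 2.04, a mean of 2.15 ± 0.09 (SD, n = 4), and lay within a narrow band inside the control range. EHO samples read 2.45, 1.92, 2.26 and 2.20, a mean of 2.21 ± 0.22 (SD, n = 4), also inside it.

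With TOTM the Pdgfrb level was 1.79, 1.66, 2.00 and 2.17, a mean of 1.90 ± 0.23 (SD, n = 4). TOTM 2 was again the lowest of all samples. The difference from control was -0.24 ± 0.17 (SE; 95% interval -0.61 to 0.13; limma adjusted p = 0.773), within the replicate spread; without control 2 it was -0.12. With MEHP the averaged pair read 1.75, MEHP 3 read 2.39 and MEHP 4 read 2.28, a mean of 2.14 ± 0.34 (SD, n = 3). The pair lay 0.39 below the control mean and the other 2 lay 0.25 and 0.13 above it, the same split as for Pdgfra. The mean difference was -0.00 ± 0.19 (SE; 95% interval -0.40 to 0.40), and without MEHP 1 and 2 it was 0.19. The means of TOTM, MEHP, control, DEHP and EHO stood in that rising order, and no neighbours in it differed beyond their spread.

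**Figure D2:**
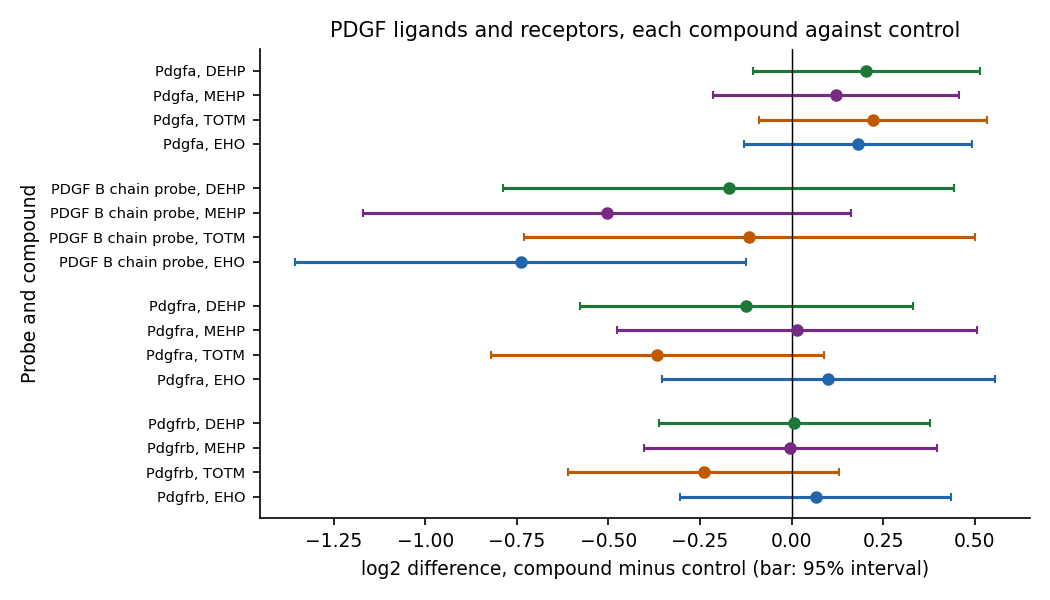
Difference between each compound and control for the 3 tested members and the PDGF B chain probe, on the log2 scale; points are limma estimates and bars 95% intervals. Every interval includes 0 except that of the B chain probe with EHO, which runs from -1.36 to -0.12 and rests on 2 arrays not well above background.

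**Figure D3:**
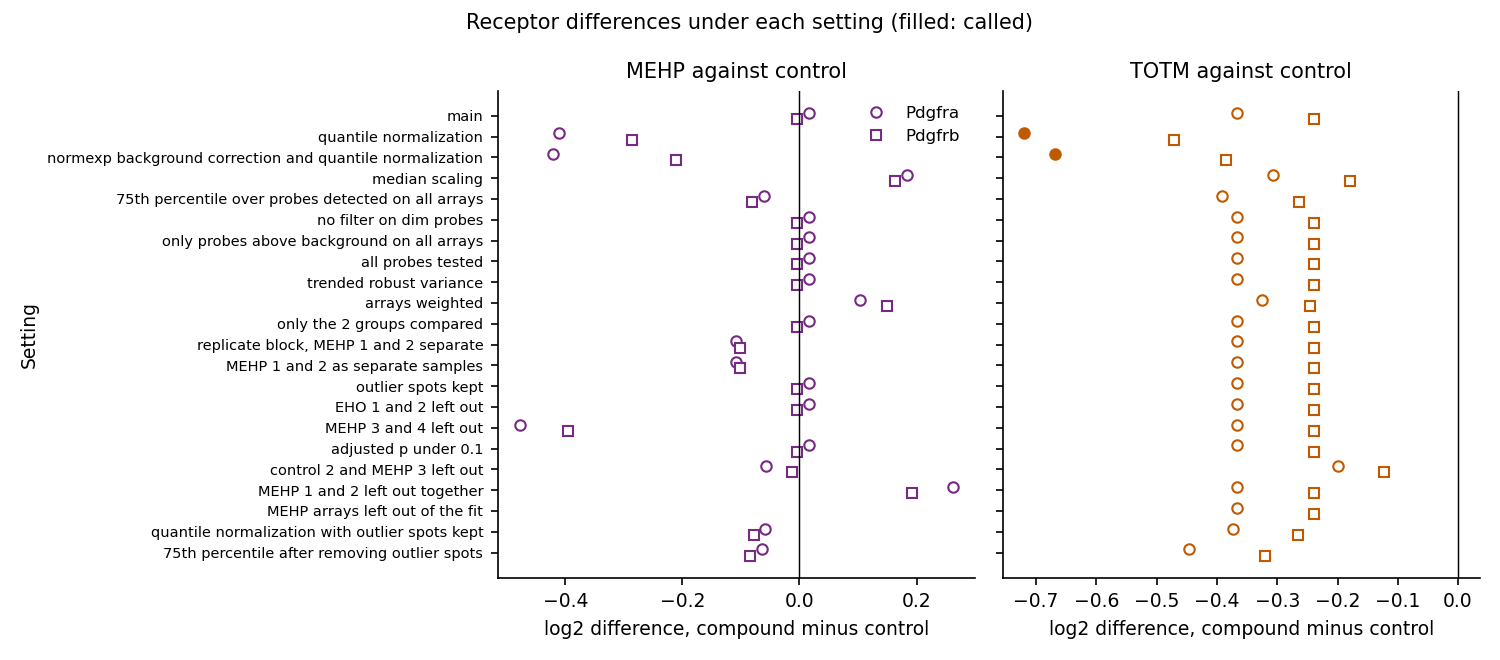
Difference from control of Pdgfra (circles) and Pdgfrb (squares) for MEHP and TOTM under each setting other than the leaving out of single arrays, on the log2 scale; filled symbols are called. Both receptors stay below control with TOTM in every setting drawn, and with MEHP they move from -0.48 to 0.26 for Pdgfra.

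A further question was whether the compounds differed from each other. DEHP, MEHP and TOTM share the 2-ethylhexyl group, and no structure is given for EHO. In the 6 comparisons between compounds, limma called 0 of the 3 tested members, and 1, Pdgfra between EHO and TOTM, had an unadjusted p under 0.05. Of all genes, 1.13% were called between MEHP and DEHP (5.57% at an unadjusted p under 0.05), 0% between TOTM and DEHP (3.02%), 6.68% between EHO and DEHP (38.3%), 1.52% between TOTM and MEHP (13.9%), 0.301% between EHO and MEHP (23.8%) and 21.6% between EHO and TOTM (46.5%). DEHP is a diester and MEHP its monoester. Their difference, MEHP minus DEHP, was 0.14 for Pdgfra (95% interval -0.35 to 0.63), -0.01 for Pdgfrb (-0.41 to 0.39) and -0.08 for Pdgfa (-0.42 to 0.25). TOTM carries 3 ester groups on its ring, and its difference from DEHP was -0.24 for Pdgfra (-0.70 to 0.21), -0.25 for Pdgfrb (-0.62 to 0.12) and 0.02 for Pdgfa (-0.29 to 0.33). These intervals leave room for shifts of either sign, so a similar action was not shown.

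For both receptors, TOTM and EHO stood farthest apart; for Pdgfa their difference was -0.04. For Pdgfra, every EHO sample lay above every TOTM sample, and the difference, EHO minus TOTM, was 0.47 ± 0.22 (SE; 95% interval 0.01 to 0.92). The unadjusted limma p was 0.0447 and the adjusted p 0.0996, which was not a call, and the exact two-sided permutation p was 0.0286, the smallest this design can give. Such a gap, with EHO higher, occurred for 10.4% of genes. Without EHO 1 and 2 the difference was 0.40 ± 0.26 (adjusted p = 0.510). For Pdgfrb the difference was 0.31 ± 0.17 (SE; adjusted p = 0.175), and the groups overlapped. Median scaling raised the Pdgfra difference to 0.94 (adjusted p = 0.0419); under that scaling the median of all genes in EHO against control moved from -0.18 to 0.35. For TOTM against MEHP the differences were -0.38 ± 0.23 for Pdgfra (adjusted p = 0.483) and -0.24 ± 0.19 for Pdgfrb (adjusted p = 0.618). When arrays were weighted by their own quality, both were called, at -0.43 (adjusted p = 0.0321) and -0.40 (adjusted p = 0.0183). Weighting also raised the calls over all genes in MEHP against control from 231 to 3754. The share of all genes it called between TOTM and MEHP is not given here.

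The receptors varied together from sample to sample. Over 19 samples, Pdgfra ran from 2.61 in TOTM 2 to 3.88 in control 2, and its SD was 0.32 over all samples and 0.31 within groups. Pearson's r between Pdgfra and Pdgfrb was 0.893 (permutation p = 1e-05, the smallest that 100000 resamples can give; adjusted p = 6e-05 over 6 pairs of probes), and Spearman's rho was 0.832 (permutation p = 5e-05; adjusted p = 0.0003). Without TOTM 2 and control 2, the samples farthest from the median of Pdgfra, r was 0.836. Without the close pair control 2 and MEHP 3 it was 0.868, and over deviations from the group means it was 0.881. No single group holds the 6 samples that a correlation within it would need.

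None of the other 5 pairs of probes passed the adjustment. For Pdgfa with Pdgfra, r was -0.289 (permutation p = 0.229, adjusted p = 0.274) and rho was -0.149 (permutation p = 0.542, adjusted p = 0.542). For Pdgfa with Pdgfrb, r was -0.381 (permutation p = 0.107, adjusted p = 0.213) and rho was -0.381 (permutation p = 0.109, adjusted p = 0.326). Leaving out EHO 2 and control 1, the samples farthest from the median of Pdgfa, gave r of -0.538 and -0.573 in turn. Without control 2 and MEHP 3, r was 0.05 and -0.18, so the relations rest in part on those arrays. The samples highest in Pdgfra, control 2 and MEHP 3, were among the lowest in Pdgfa, with 1.87 and 1.89.

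**Figure D4:**
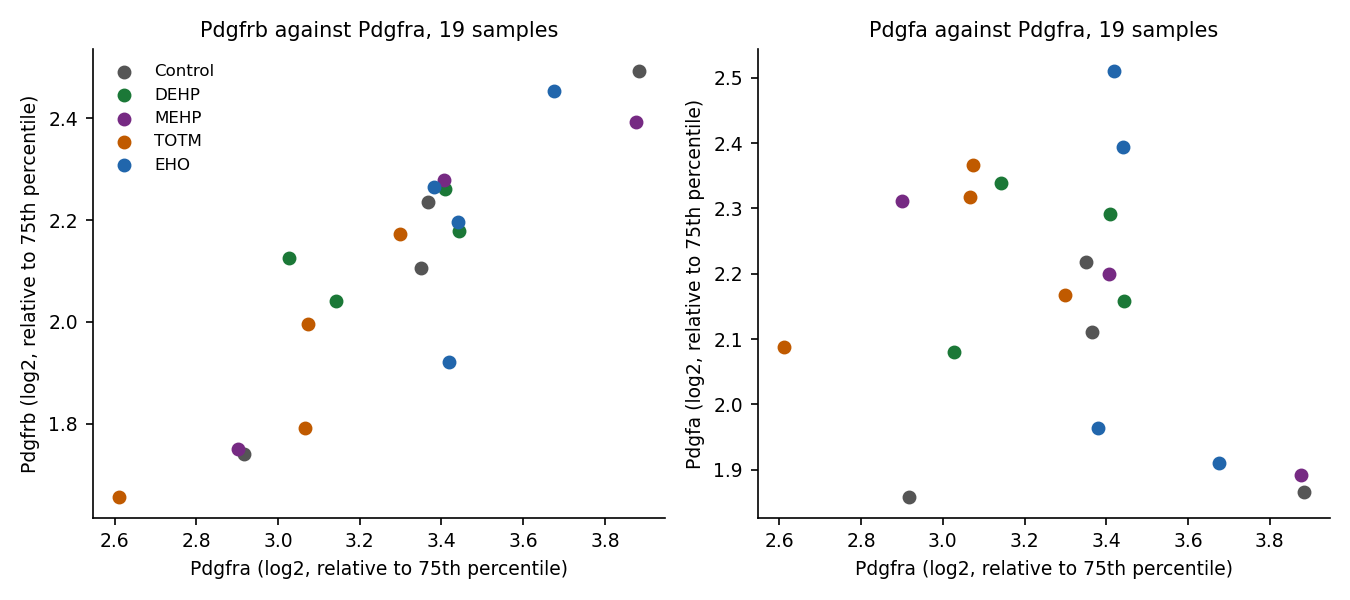
Pdgfrb (left) and Pdgfa (right) against Pdgfra, both axes on the log2 scale relative to the array's 75th percentile; each point is 1 of 19 samples, coloured by group. The receptor points follow a line with r of 0.893 in which all groups mix, and the Pdgfa points follow none (r of -0.289).

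The genes most like each member were taken as those with the highest r over the 19 samples among up to 4804 genes with a symbol, given as descriptions because they were chosen for their r. For Pdgfra these were Cspg4 (r of 0.923), which encodes the NG2 proteoglycan of pericytes and a known partner of PDGFR-alpha, Mid1ip1 (0.914), a regulator of lipid synthesis, and Cacna2d1 (0.90), a calcium channel subunit. For Pdgfrb they were Apln (0.884), the peptide ligand of the apelin receptor, Cspg4 (0.876) and Dync1i1 (0.874), a dynein chain. For Pdgfa they were P2ry2 (0.909), a nucleotide receptor, Fmo5 (0.848), a flavin monooxygenase, and Efhd2 (0.847), a calcium-binding protein.

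Some marker lists of the cell types in the pool moved with the members over the samples. Of 36 relations between 12 lists (the log2 of the summed linear level of a list) and the 3 tested members, 8 had an adjusted permutation p of r under 0.05. The endothelial list, summed over 8 genes, had r of 0.747 with Pdgfra (rho 0.725, permutation p of r 0.00028 and of rho 0.00096, adjusted p 0.00504 and 0.018) and 0.741 with Pdgfrb (rho 0.712, permutation p of r 0.00028 and of rho 0.001, adjusted p 0.00504 and 0.018). Without the 2 samples farthest from the list's median these were 0.698 and 0.649. Its summed level ran from 14.9 to 23.4 in controls, 16.9 to 19.1 with DEHP, 17.8 to 21.8 with MEHP, 13.9 to 18.9 with TOTM and 19.9 to 31.6 with EHO. Every EHO sum thus lay above every TOTM sum, as for Pdgfra. The single genes did not move as a set. With EHO 4 of the 8 lay above control and 4 below (median difference -0.03), with 1 called higher and 1 lower, beside 24.8% of all genes. With TOTM 3 lay above and 5 below (median -0.02), and with MEHP 1 above and 7 below (median -0.18). How often such a gap occurs for a summed list was not counted. The pericyte list, which holds Cspg4, had r of 0.627 with Pdgfra (rho 0.607, permutation p of r 0.0037 and of rho 0.00688, adjusted p 0.0266 and 0.0411; 0.531 without its 2 farthest samples), and its r of 0.522 with Pdgfrb did not pass (rho 0.530, permutation p of r 0.0219 and of rho 0.0212, adjusted p 0.0875 and 0.0848). The macrophage and leukocyte list had r of 0.587 with Pdgfra (rho 0.598, permutation p of r 0.00829 and of rho 0.00799, adjusted p 0.0426 and 0.0411) and 0.570 with Pdgfrb (rho 0.600, permutation p of r 0.00965 and of rho 0.00715, adjusted p 0.0434 and 0.0411), which were 0.568 and 0.497 without its 2 farthest samples.

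The interstitial progenitor list had r of 0.645 with Pdgfra (rho 0.644, permutation p of r 0.00303 and of rho 0.00379, adjusted p 0.0266 and 0.0341), which was 0.450 without its 2 farthest samples, and 0.600 with Pdgfrb (rho 0.516, permutation p of r 0.00538 and of rho 0.0254, adjusted p 0.0323 and 0.0913; 0.342 without its 2 farthest samples). Its summed level over 7 genes ran from 20.7 to 26.5 in controls, 17.3 to 23.3 with TOTM and 27.1 to 37.6 with EHO. With TOTM limma called 0 of its 7 genes (median difference 0.07), beside 0.0209% of all genes (median -0.04). With EHO limma called 3 of 7, all higher (median 0.37), beside 24.8% of all genes (median -0.18). Without EHO 1 and 2, 0 of the 7 were called, beside 223 over all genes. The Sertoli list had r of 0.691 with Pdgfa (rho 0.647, permutation p of r 0.0013 and of rho 0.00354, adjusted p 0.0156 and 0.0341), 0.567 without its 2 farthest samples. The fetal Leydig list, summed over 8 genes with 2 left out for missing values, ran from 173 to 232 in controls, 90.2 to 118 with DEHP, 50.1 to 231 with MEHP, 154 to 200 with TOTM and 106 to 165 with EHO. Its r of 0.393 with Pdgfra did not pass (rho 0.221, permutation p of r 0.0979 and of rho 0.364, adjusted p 0.220 and 0.624). That r was 0.235 without its 2 farthest samples and 0.741 over deviations from group means. The close pair control 2 (232) and MEHP 3 (231) held the highest sums and also the highest Pdgfra levels. The part of cell composition in the members' values was not tested.

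Around the members, 52 genes of 4 lists were tested: relatives of the ligands and receptors, genes that process or bind the ligands, genes that carry the receptor signal, and early genes that PDGF induces in cultured cells. With limma, 0 of 52 were called with DEHP, MEHP or TOTM, beside 0.00417%, 0.964% and 0.0209% of all genes. An unadjusted p under 0.05 was found for 2, 1 and 8 of the 52 in turn, beside 2.47%, 5.32% and 8.21% of all genes. These zeros changed with the scaling. Quantile normalization called 1 higher and 5 lower with DEHP, 7 lower with MEHP and 10 lower with TOTM. With normexp before it the calls were 1 higher and 6 lower, 6 lower and 9 lower. Of the 23956 genes tested, quantile normalization called 1653, 2167 and 2325 in turn, and with normexp 1897, 2516 and 2724. With outlier spots kept, quantile normalization called 1 higher with DEHP (Ccn1), 0 with MEHP and 1 lower with TOTM (Rasa1). Over all genes that setting called 107, 464 and 187. Weighted arrays called 1 higher and 7 lower with MEHP, beside 3754 over all genes. Of the early genes with DEHP, Ccn1, a secreted matrix protein, was 0.98 ± 0.20 (SE) above control and was not called (adjusted p = 0.289), but was called under both quantile normalizations. With TOTM the signalling gene Rasa1, a brake on RAS, was -0.43 ± 0.12 (SE; adjusted p = 0.298, called under both quantile normalizations) and Pik3r2, a regulatory subunit of the lipid kinase, 0.57 ± 0.19 (SE; adjusted p = 0.458). With MEHP, Junb, a transcription factor subunit, was -0.47 ± 0.19 (SE; adjusted p = 0.683). The list medians with these 3 compounds lay between -0.15 and 0.09, against -0.06 to -0.03 over all genes.

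With EHO, 12 of 52 genes were called, 6 higher and 6 lower, beside 24.8% of all genes. The median difference over the 52 was 0.14, against -0.18 over all genes. With only probes above background on all arrays, the median was 0.20 over 43 list genes and 0.04 over all genes. That setting called 5 list genes higher and 0 lower, beside 2165 over all genes. Of 8 relatives, 4 were lower: Kitlg (-1.70), the ligand of the germ cell receptor Kit; Kit itself (-1.53), a kinase of the PDGF receptor class; Pdgfrl (-1.40), a receptor-like protein without a kinase; and Pdgfd (-1.21), the D chain. Each of these was well above background on all 4 control arrays and on 2 of 4 EHO arrays. Without EHO 1 and 2 the differences were -0.53 for Kitlg, -0.52 for Kit, -0.30 for Pdgfrl and -0.14 for Pdgfd, none of them called. Of 8 processing and binding genes, 1 was higher, Sparc (0.51), a matrix protein that binds PDGF.

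Of 26 signalling genes with EHO, 4 were higher, among them Akt1 (0.88), a survival kinase, Stat3 (0.73), a transcription factor, and Fyn (0.32), a SRC-family kinase. The adjusted p was 0.00852 for Stat3 and 0.0438 for Akt1. Pik3r1, the main regulatory subunit of the lipid kinase, was called lower (limma adjusted p = 0.0479). It was well above background on 3 of 4 control arrays and 0 of 4 EHO arrays, so no lower limit of its fold is given. Of 10 early genes, Junb was higher (0.61) and Fos lower (-1.42), with Fos above background on 2 of 4 EHO arrays. Without EHO 1 and 2, Fos differed by -0.32, Pik3r1 by -0.29 and Sparc by 0.28, and none of these was called. Akt1 (0.88), Stat3 (0.67), Junb (0.53) and Fyn (0.24) moved less when those arrays were left out. They were not called either (limma adjusted p = 0.269, 0.0909, 0.259 and 0.437 in turn).

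These EHO calls depended on which arrays and groups entered the fit. Without EHO 1 and 2, 0 of 52 genes were called, and in a fit of the EHO and control arrays alone 0 were called; over all genes the calls went from 5937 to 223 and to 3. Leaving out EHO 1 gave 2 calls, EHO 2 gave 1, control 1 gave 2 and control 4 gave 1. Over all genes these gave 808, 1029, 699 and 1183. Leaving out EHO 3 gave 9 higher and 10 lower, and EHO 4 gave 7 higher and 9 lower. Over all genes these gave 9943 and 10443. Median scaling gave 23 higher and 5 lower, and quantile normalization 3 higher and 13 lower, with Sparc among the lower ones. Over all genes these settings called 8251 and 7961.

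**Figure D5:**
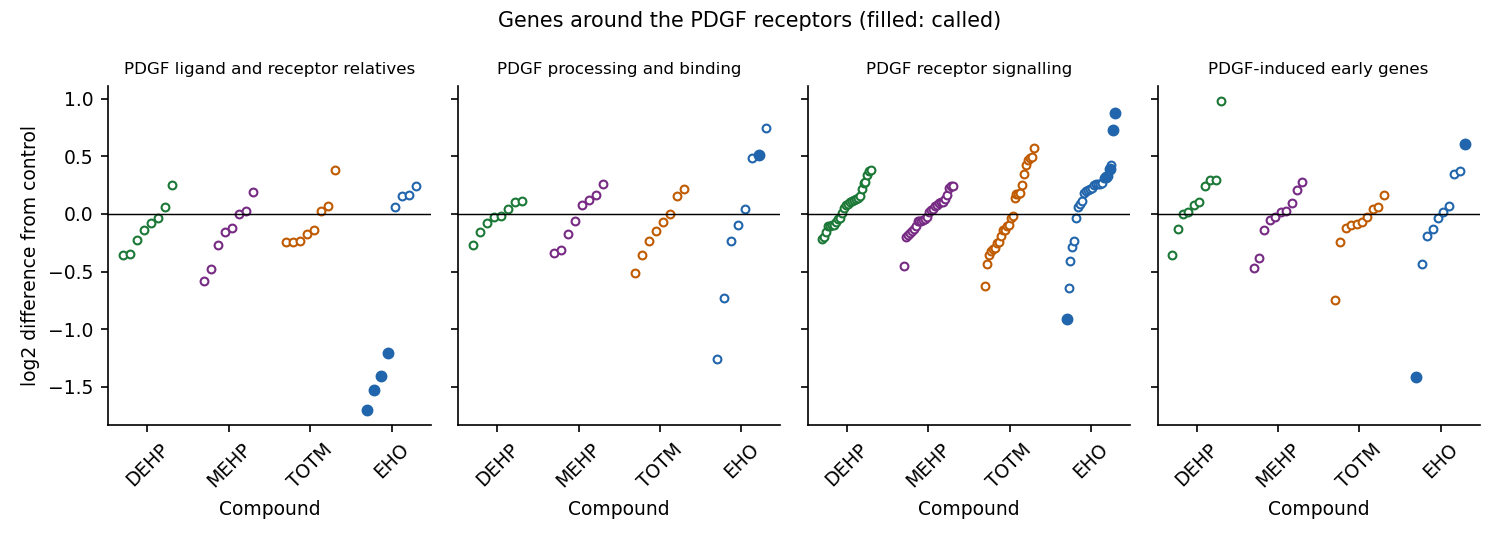
Difference from control of each tested gene of the 4 lists around the PDGF receptors, by compound, on the log2 scale; each point is 1 gene, ordered by its difference, and filled points are called. Filled points occur with EHO, 6 above and 6 below 0.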

How the data were processed

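Per the file headers, the deposited 1-colour arrays were read by Agilent Feature Extraction 9.5.3.1 (9.5 in the submitters' processing notes) with coordinates on rn4, and the processed intensity was background-subtracted by the authors' software but not scaled across arrays. For each compound, the authors' deposited list gives a p-value and a fold change, a signed score that is negative where the compound is lower; their test is not given in the sources used here.

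Outlier spots were left out, repeated spots averaged as log2, and each array's 75th percentile over its 43379 non-control spots subtracted. Whether outlier spots enter that percentile was settled after results of several definitions had been seen, following an earlier description of these data; the closing section gives the values under the other definition. Probes well above background on all arrays of at least 1 group were kept (28133), and the brightest probe per gene name was tested. A mean for each group was fitted by limma 3.58.1 (R 4.3.3; 14 residual and 2.53 prior degrees of freedom). Scripts used version 1.17.8 of data.table, numpy, pandas, scipy and matplotlib in Python, and were tested on simulated data.

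Members and lists were chosen with earlier results of these data known. Named genes were all members, list genes called in any comparison with control and otherwise up to 2 with the largest differences, and the 3 genes with highest r per member; Rasa1 was named after its values were seen. A called list gene is not reported here by name. Same-numbered samples did not pair (correlations of -0.683 to 0.487 with controls). Alternatives covered scaling, background, filter, variance, arrays left out and the replicate block.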

Additional observations from a re-analysis of the deposited data

How the results depend on the processing

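Of the 10 counts of called members, all 0, 6 did not move under any alternative. For TOTM against control the count was 1 (Pdgfra) with quantile normalization, with or without normexp; for EHO against control 1 (Pdgfa, 0.71) and for EHO against TOTM 1 (Pdgfra) with median scaling, and the latter also 1 at an adjusted p under 0.1; for TOTM against MEHP 2 (Pdgfra and Pdgfrb) with weighted arrays. The share of all genes called between TOTM and MEHP with weighted arrays is not given here. Pdgfra and Pdgfrb stayed below control and below DEHP with TOTM throughout. The differences below changed sign, and none of those was called. Values are log2 differences; the cause was not tested unless a value below shows it.

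Quantile normalization gave, for DEHP, MEHP and EHO against control, Pdgfa -0.066, -0.16 and -0.16 (TOTM -0.0060), Pdgfra -0.41 with MEHP and -0.39 with EHO, and Pdgfrb -0.26 with DEHP and -0.28 with EHO. With normexp before it these were -0.026, -0.12 and -0.15 for Pdgfa, -0.42 and -0.31 for Pdgfra, -0.24 and -0.30 for Pdgfrb, and 0.029 for Pdgfrb in MEHP against DEHP. Quantile normalization with outlier spots kept, added after seeing the data, moved the signs of fewer values and by less: Pdgfrb -0.049 with DEHP and -0.069 with EHO, Pdgfra -0.059 with MEHP and -0.034 with EHO. With outlier spots removed, quantile normalization called 2325 genes with TOTM, and with them kept 187.

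The 75th percentile after removing outlier spots, the definition not adopted and compared after results were seen, called 0, 177, 49 and 8166 genes with DEHP, MEHP, TOTM and EHO, against 1, 231, 5 and 5937. It gave Pdgfrb -0.074 with DEHP and -0.014 with EHO, and Pdgfra -0.065 with MEHP. The percentile over probes detected on all arrays gave Pdgfrb -0.049 and -0.080 and Pdgfra -0.061 with MEHP and -0.045 with EHO. Median scaling gave Pdgfrb 0.16 with MEHP and 0.052 in MEHP against DEHP; weighted arrays gave 0.15 and 0.068.

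Without MEHP 3 and 4, Pdgfra was -0.48 (MEHP against control), -0.35 (MEHP against DEHP) and 0.11 (TOTM against MEHP), and Pdgfrb 0.15 in the last. Without MEHP 1 and 2, Pdgfrb was 0.19 against control and 0.18 against DEHP. Without control 2 and MEHP 3, Pdgfra was 0.044 (DEHP), -0.057 (MEHP) and -0.10 (MEHP against DEHP). The replicate block, with MEHP 1 and 2 separate, changed no call; Pdgfra with MEHP was -0.11, as with these arrays separate and no block.

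Leaving out each array in turn moved Pdgfra from -0.28 to 0.044 (DEHP), -0.23 to 0.18 (MEHP), -0.054 to 0.27 (EHO) and -0.10 to 0.20 (MEHP against DEHP), and Pdgfrb from -0.13 to 0.12 (DEHP), -0.14 to 0.11 (MEHP), -0.069 to 0.18 (EHO) and -0.14 to 0.025 (MEHP against DEHP). The PDGF B chain probe with EHO ran from -0.97 to -0.38 and was called without EHO 3 (adjusted p = 0.0146) or EHO 4 (adjusted p = 0.0169); it was also called with MEHP under weighted arrays (-0.56, adjusted p = 0.0172). Signal over background limits Pdgfc and, on EHO 1 and 2, the B chain probe.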

Other observations

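The authors' deposited table lists Pdgfra and Pdgfrb for MEHP and Pdgfra for TOTM, and no member for the other compounds. In the authors' deposited table Pdgfra has a signed fold of -1.5 with MEHP (p-value 0.00055), Pdgfrb has -1.4 with MEHP (p-value 0.00085), and Pdgfra has -1.35 with TOTM (p-value 0.00551). The array values gave a Pdgfra level that was 1.39-fold and a Pdgfrb level that was 1.31-fold higher in the control mean than in the averaged pair MEHP 1 and 2, while MEHP 3 and 4 lay above the control mean for both.

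Over the 3653 probes that could be matched to the MEHP list of the authors' deposited table, folds were set beside the log2 differences of these arrays. MEHP 1 and 2 alone had the same sign for 100% of probes, with a median gap of 0.0704 and r across probes of 0.987. All 4 MEHP arrays had the same sign for 97.8%, with a gap of 0.244 and r of 0.910. MEHP 3 and 4 alone had the same sign for 53.7%, with a gap of 0.446 and r of 0.360. For EHO, over 3982 probes, r was 0.914 with all 4 arrays and 0.951 with EHO 3 and 4 alone, against a block of the table headed by another short form of the name. Probes are not independent replicates, and which arrays the authors used is not stated in the sources used here.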
